A study of Saccharomyces cerevisiae with 2 samples.

Results

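The wide S9.6 peaks of budding yeast described here are stretches of DNA recovered with S9.6, which binds RNA:DNA hybrids. They touch no tRNA gene and no unnamed ORF over 4500 bp, the length class of the long Ty retrotransposon frames. They were selected on width from the deposited peak list: nuclear peaks of 500 bp or more that shared no base with a tRNA gene or such an ORF. Unnamed means a protein-coding gene that has no name beside its systematic one. Shorter Ty frames were not excluded, and peaks away from or at Ty are named below by this length class only. This gave 286 of the 1687 nuclear peaks (17.0%), in a list of 1723 peaks in all. Width chose these peaks, so widths, scores and the number of genes under a peak are given as a description, with no test.

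An R loop forms when a nascent RNA pairs with its template DNA strand and leaves the other strand single. Long, strongly transcribed genes and stretches of high GC content are known places of R loops in yeast, and RNase H enzymes, helicases, topoisomerases and the proteins that package mRNA keep them low. S9.6 recovers the hybrid together with the DNA fragment that carries it, so after a cut with restriction enzymes a peak can reach past the hybrid itself.

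The series holds 1 immunoprecipitate (S9.6 IP) and 1 input without antibody, both from strain WRBb-9D in asynchronous, mid-log growth in YPAD medium at 30 ºC. The strain was used as wild type. It is MATa and carries the alleles ade2-1, trp1-1, can1-100 and his3-11,15, a mutant allele of LEU2, a deletion of BAR1 (bar1-delta), a FLAG tag with a KAN marker on the helicase gene RRM3 (RRM3::FLAG::KAN), and at the URA3 locus ura3::URA3/GPD-Tk(7x), a thymidine kinase under the promoter of the glyceraldehyde-3-phosphate dehydrogenase gene. Values of the input were not analysed here. With 1 library there was no replicate, read depth is unknown, and no p-value is given.

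The median width was 700 bp, the quartiles were 575 and 975 bp, and the widest peak measured 6600 bp. Of these, 68 were 1000 bp or more and 12 were 2000 bp or more. Together they took up 258991 bp, which is 29.1% of all nuclear bases in peaks and 2.15% of the nuclear genome. The authors' score, whose scale is unknown, was used only to rank and compare peaks within this list. It had a median of 32 and ran from 15 to 679. Ties were common, and 57 of the 286 peaks had a score of exactly 32. For orientation, the 1225 narrower peaks away from tRNA genes and Ty had a median score of 21, and the 135 wide peaks at a tRNA gene or Ty-length ORF had 73. The median score was 32 in the 83 peaks under 600 bp, also 32 in the 95 from 600 to 799 bp and the 40 from 800 to 999 bp, 52 in the 56 peaks from 1000 to 1999 bp and 94 in the 12 widest. Just outside the limit, the 36 peaks of 475 bp had a median score of 26, and just inside it the 29 peaks of 500 bp had 32, with ranges of 15 to 141 and 15 to 71.

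**Figure D1:**
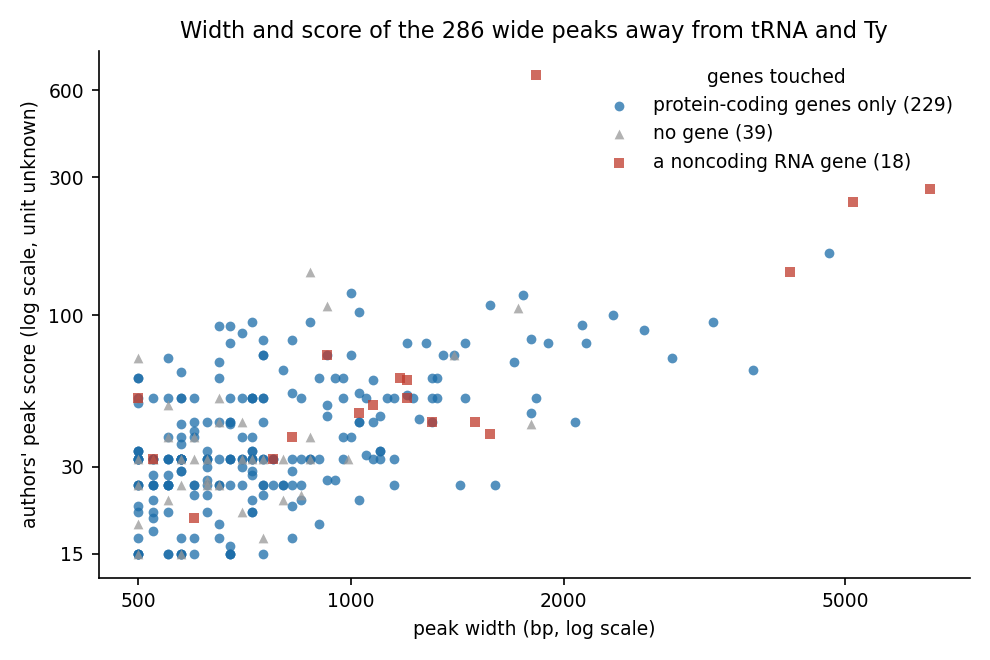
Width (bp) against the authors' score of each of the 286 wide peaks, both on log axes, with peaks over noncoding RNA genes as squares, peaks over protein-coding genes only as circles and peaks over no gene as triangles. The 3 highest scores, 679, 273 and 246, belong to peaks over noncoding RNA genes, and most peaks sit between 500 and 1000 bp with scores from 15 to 100.

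By rule no wide peak touches a tRNA gene or a Ty-length ORF, but 59 (20.6%) lay within 1000 bp of one, 52 of them near a tRNA gene and 8 near a Ty-length ORF, with 1 near both. The median score was 43 for the 17 peaks at most 250 bp away, 38 for the 11 from there to 500 bp, 34 for the 31 from there to 1000 bp, and 32 for the 227 farther off. The peak with the highest score that touches no gene (chromosome V, 487576 to 488450, 875 bp, score 141) ended 174 bp from a tRNA gene. The gene table does not annotate Ty elements, and the length rule does not remove shorter Ty frames, so some wide peaks may lie on Ty DNA. The peak on chromosome I at 160226 to 164975 (4750 bp, score 165) held the whole of YAR009C, an unnamed ORF of 3591 bp, and 32.7% of YAR010C. YAR010C, YDR170W-A (55.3% inside, score 73) and YLR256W-A (34.7%, score 82) are each 1323 bp long, and of the 31 unnamed ORFs of that length 28 lie inside a Ty-length ORF. YIL082W-A, at 4498 bp, had 20.6% inside a wide peak of score 45. Whether these 5 ORFs belong to Ty elements was not tested. In all, 23 wide peaks touched an unnamed ORF, and 263 did not.

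Most wide peaks lay over a single gene. Of the 286, 187 (65.4%) touched 1 gene, 48 touched 2, 7 touched 3 and 5 touched 4 or more, while 39 (13.6%) touched no annotated gene. Thus 60 peaks (21.0%, exact 95% interval 16.4 to 26.2) spanned 2 or more genes, against 2.37% of the narrower peaks and 71.1% of the wide peaks at tRNA genes or Ty. These shares depend on width and on the rule, because every peak at a tRNA gene or Ty-length ORF touches at least 1 gene. Of the 41 narrower peaks at such genes, 14 spanned 2 or more genes. The intervals cover counting error only. A whole gene fitted inside 27 of the wide peaks (9.44%).

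The 3 peaks of highest score each held a noncoding RNA gene. Beside the ribosomal DNA on chromosome XII, the peak at 488751 to 490575 had the highest score of the nuclear list, 679. It held RDN5-6, a 5S ribosomal RNA gene outside the main array, with the unnamed ORFs YLR161W and YLR162W, and most of RRT15. The widest peak (469126 to 475725, 6600 bp, score 273) lay on the same arm and held RDN5-3, a further 5S gene, between ASP3-1 and ASP3-2, which encode cell-wall asparaginase. These units repeat nearly unchanged along the region, so the value of each single copy is uncertain. The third highest (chromosome II, 678726 to 683850, 5125 bp, score 246) had its summit on the last base of LSR1, the U2 small nuclear RNA of the spliceosome. It spanned 6 genes, with OM14, COQ21 and SWC5 whole, and reached into ROT2 and PBP2. The peak at 197001 to 201175 on chromosome XII (4175 bp, score 141) held SNR30, a small nucleolar RNA needed to mature 18S rRNA. It covered 86.3% of AAT2, an aspartate aminotransferase gene, and 92.1% of ADE16 of purine synthesis, and its summit stood in the divergent gap 321 bp upstream of SNR30.

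**Figure D2:**
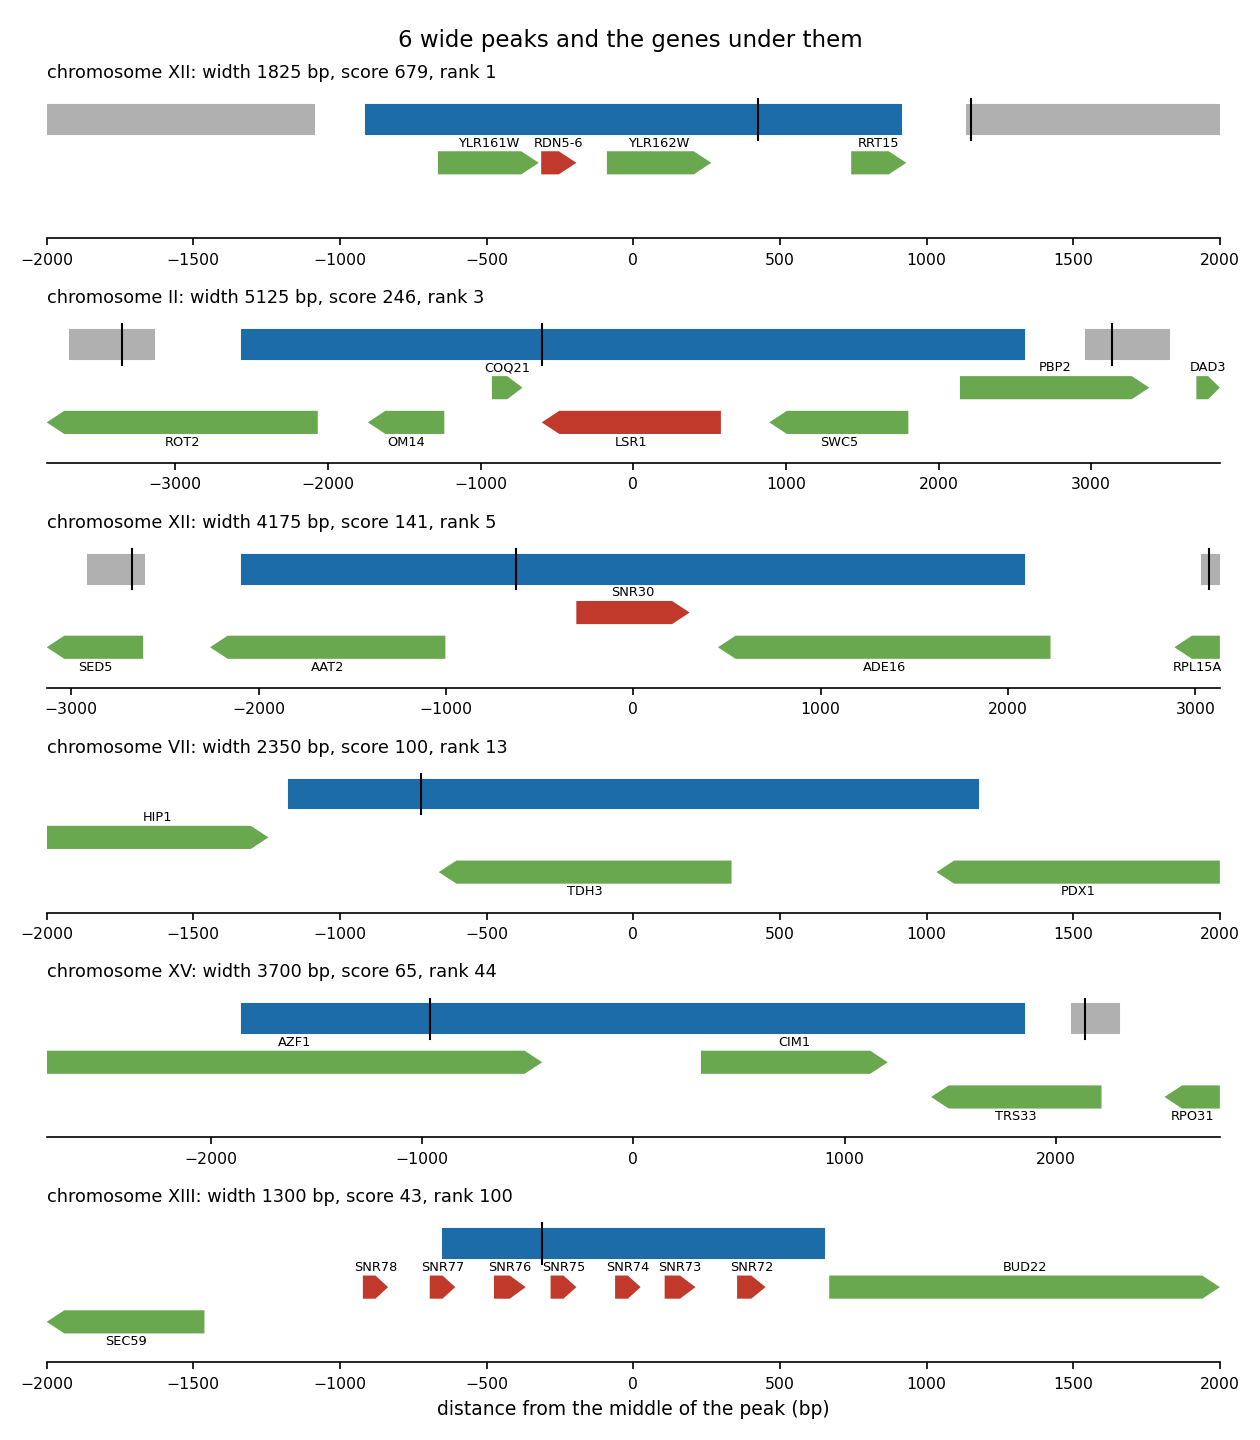
Genes under 6 of the wide peaks, drawn by distance (bp) from the middle of the peak. The blue bar is the wide peak, grey bars are other peaks of the list, black ticks are summits, green arrows are protein-coding genes and red arrows noncoding RNA genes, with arrows to the right on the Watson strand. The peaks hold RDN5-6, LSR1, SNR30, TDH3, CIM1 and 5 of the 7 small nucleolar RNA genes of the cluster from SNR78 to SNR72 whole.

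Genes of noncoding RNAs were touched by 18 wide peaks, which had a median width of 1188 bp and a median score of 50.5. Of the 76 small nucleolar RNA (snoRNA) genes, which guide rRNA modification and cleavage, 19 were touched, 16 were at least 50% inside and 12 lay wholly inside. Of the 6111 nuclear genes that are neither tRNA genes nor Ty-length ORFs, 5.06% were touched and 2.11% were at least 50% inside. The snoRNA genes had a median length of 125 bp, so a wide peak that reaches one easily holds most of it. Several of them also shared a peak with others, so the touched genes are not separate counts. A single peak on chromosome XIII (297551 to 298850, score 43) held SNR76, SNR75, SNR74, SNR73 and SNR72 whole and 48.9% of SNR77. These C/D box RNAs are cut from a common precursor. SNR128, the U14 snoRNA, lay whole inside a peak of score 73 on chromosome X, which also took in 21.1% of the neighbouring SNR190 and the end of DAS1. The paired U3 genes SNR17A and SNR17B were 65.5% and 36.2% inside, with scores of 60 and 52, and as near-identical copies they may share reads. SNR86 (95.9% inside, score 61), SNR9 (95.2%, score 32) and SNR37 (79.5%, score 52) were largely inside, while SNR33 (score 43), SNR82 (score 32), SNR83 (score 49), SNR53 and SNR67 (1 peak of score 20) were wholly inside.

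The remaining noncoding genes touched were few. NME1, the RNA of RNase MRP, which cuts pre-rRNA, was 55.6% inside a peak of score 38, and SNR19, the U1 small nuclear RNA, was 34.5% inside a peak of score 46. RME2, an antisense RNA to the meiotic methyltransferase gene IME4, was 17.0% inside. That peak (chromosome VII, 140701 to 142275, score 39) also reached IME4, YGL193C and HOS2, a histone deacetylase gene. None of the 21 genes annotated as ncRNA and none of the 18 pseudogenes was touched, nor was the telomerase RNA gene. Of all nuclear genes other than tRNA genes and Ty-length ORFs, 5.06% were touched. At that share, classes of this size would hold few touched genes or none.

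Of 6002 nuclear protein-coding genes, 284 (4.73%) were touched by a wide peak and 109 (1.82%) were at least 50% inside, here called covered. By comparison 265 (4.42%) were covered by nuclear peaks of any kind. The covered genes had a median length of 912 bp against 1200 bp for all protein-coding genes, and 29 lay wholly inside. Among 15 gene lists that describe processes active in growing yeast, which together held 802 genes, 27 genes were covered. The other 82 covered genes were in no list. The lists were drawn up with earlier results of these data known, and no list was tested.

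Genes of glycolysis and fermentation, which are among the most strongly transcribed in cells growing on glucose, had the highest share: 7 of 29 (24.1%) were covered and 10 were touched, against 1.82% and 4.73% of all protein-coding genes. TDH3, a glyceraldehyde-3-phosphate dehydrogenase gene, lay wholly inside the peak at 882301 to 884650 on chromosome VII (2350 bp, score 100), with 840 bp of the peak upstream of its start and 511 bp beyond its end. The summit stood 61 bp past the end of TDH3, in the convergent gap with HIP1. The promoter of TDH3 is also in the strain's thymidine kinase cassette, and its part in this peak was not tested. ADH1, alcohol dehydrogenase, was likewise whole inside a peak of score 52. ENO2, an enolase gene, was 75.3% inside 2 peaks with scores of 73 and 80, which lay inside its body and across its end.

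The other covered glycolytic genes were FBA1 (aldolase, 82.7% inside, score 61), CDC19 (pyruvate kinase, 70.7% inside 2 peaks, highest score 32), TDH2 (67.6%, score 16) and ENO1 (57.1%, score 52). The peak of FBA1 and 1 of the 2 peaks of CDC19 crossed the gene end. The other peak of CDC19 and those of TDH2 and ENO1 lay wholly within the gene. GPD2, which makes glycerol, was touched from the start side: its first 45.4% lay inside a peak of score 103 that began 425 bp upstream. PDC1 (32.5% inside, score 26) and PYK2 (32.9%, score 15) had a peak within the gene. TDH2 and TDH3, and ENO1 and ENO2, are close copies of each other, so reads that match both may be shared between them.

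Genes for making ribosomes had lower shares than glycolysis genes. Of all protein-coding genes, 1.82% were covered and 4.73% touched. Of the 138 cytosolic ribosomal protein genes, 8 (5.80%) were covered and 10 touched, with RPS25A (score 54) and RPL26B (score 52) whole and RPL33A 50.5% inside (score 52). None of 67 mitochondrial ribosomal protein genes was covered and 2 were touched. Of 73 ribosome biogenesis genes, 4 (5.48%) were covered and 10 touched. DRS1, a helicase of 60S assembly, was 85.1% inside 2 peaks with scores of 93 and 54. NOP58, a core protein of C/D snoRNA particles, was 78.2% inside (score 61), and MAK16, also of 60S assembly, was 99.9% inside (score 52).

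Of 40 translation factor genes, 2 (5%) were covered and 7 (17.5%) touched, against 1.82% and 4.73% of all protein-coding genes. FUN12, the initiation factor eIF5B, was 79.7% inside a peak of 2600 bp (score 89) that began 201 bp upstream. TEF1, which encodes elongation factor eEF1A, was 74.1% inside a peak of score 73 that ran 380 bp past its end. Its copy TEF2 was 48.8% inside (score 82), and reads that match both copies may be shared between them.

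For proteins of the membrane and wall, shares of covered genes were near the 1.82% of all protein-coding genes, of which 4.73% were touched. Of 62 cell wall and surface genes, 2 (3.23%) were covered and 9 (14.5%) touched. These 2 were MTL1, a wall stress sensor (64.9%, score 60), and CCW14 (56.1%, score 52). CRH1, a chitin transglycosylase, was 47.6% inside a peak of score 95. Of 59 pump and transporter genes, 2 (3.39%) were covered and 5 (8.48%) touched. VMA4, a subunit of the vacuolar ATPase, was 53.7% inside 2 peaks with scores of 32 and 120. PMA1, the plasma membrane proton pump, was 65.9% inside 2 peaks with scores of 45 and 46, 1 within its body and 1 beyond its end. HSC82, an Hsp90 chaperone gene, was covered (53.1%, highest score 52), the only covered gene of 36 chaperones (2.78%). OLE1, the fatty acid desaturase gene (66.7% inside, score 33), was the only covered gene of 42 in lipid synthesis (2.38%).

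Several lists had no covered gene, where 1.82% of all protein-coding genes were covered and 4.73% touched. At that share, lists of this size would hold few covered genes or none. These were amino acid biosynthesis (4 of 72 touched), DNA-binding transcription factors (5 of 78), cyclins and cell cycle genes (1 of 43), telomere and silencing genes (1 of 20) and histones (0 of 10). The same held for the 35 genes of R-loop metabolism and mRNA export, of which 4 were touched. These 4 were RRM3 (42.4% inside, score 71), NAB2 (30.4%, score 61), YRA1 (34.6%, score 26) and TOP2 (17.3%, score 26). YRA1, the mRNA export adaptor that the series concerns, had a peak of 500 bp within the gene, whose span of 1447 bp includes an intron. RRM3 had its start inside a peak of 2850 bp shared with ERC1, and it carries the FLAG and KAN insertion in this strain. The part of the insertion in that peak was not tested. BAR1, which is deleted in this strain, and URA3, ADE2, CAN1, HIS3, LEU2 and TRP1 had no base inside a wide peak of this set. Other peaks of the list held 48.1% of LEU2, 27.4% of URA3, 14.1% of CAN1 and 0.283% of BAR1. ADE2, HIS3 and TRP1 lay outside every nuclear peak.

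**Figure D3:**
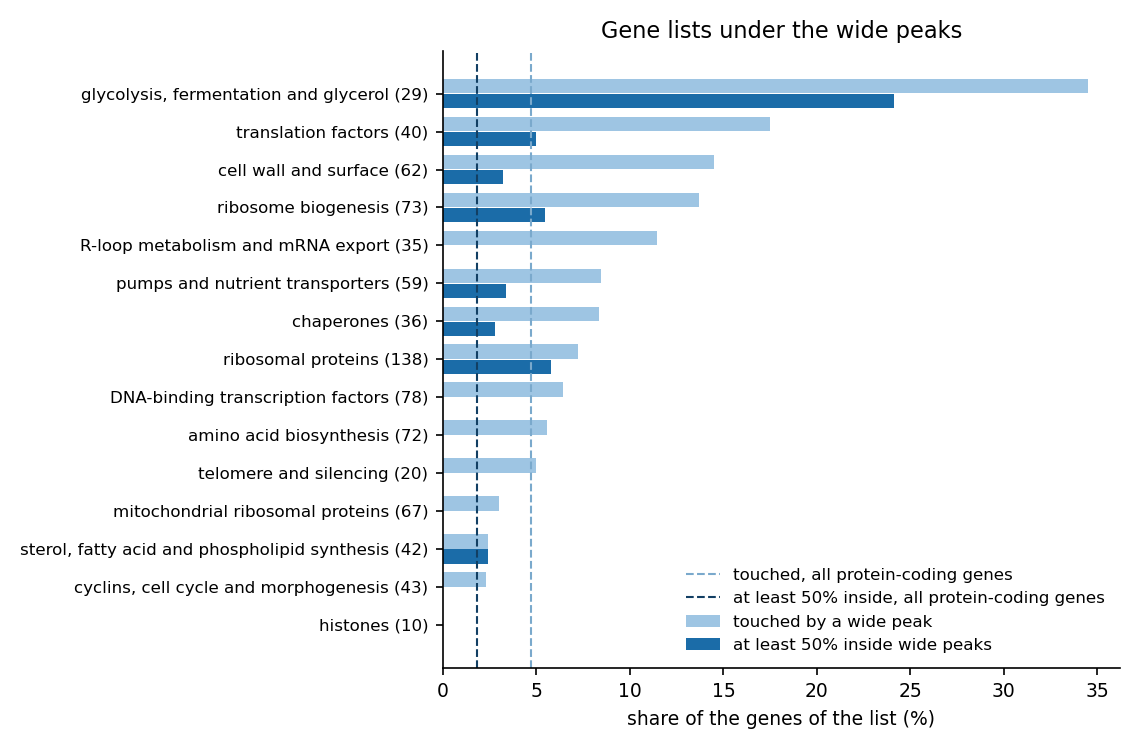
Share (%) of the genes of each list that were touched by (light bars) or at least 50% inside (dark bars) the wide peaks, with the number of genes in the list in brackets. Dashed lines mark the same shares over all 6002 protein-coding genes, 4.73% and 1.82%, and the glycolysis list reaches 34.5% and 24.1%.

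Outside the lists, the named genes came from the highest and widest peaks. RNR2, the small subunit of ribonucleotide reductase, and RRN7 shared a peak of score 109 on chromosome X with its summit in the tandem gap between them, 260 bp past the end of RNR2. MRS2, a mitochondrial magnesium channel gene, held the summit of a peak of score 120 at 18.9% of its length. ATP23, a mitochondrial protease gene, lay whole inside a peak of score 118 on chromosome XIV that reached into ARE2 and YNR021W. RPT2, a proteasome ATPase gene, was 61.2% inside a peak of score 95. MAS1, of the mitochondrial processing protease, lay whole inside a peak of 3250 bp (score 95) beside the ribosomal DNA that reached into SHH4. Among the widest peaks, the one on chromosome XV at 535401 to 539100 (3700 bp, score 65) held CIM1 with parts of AZF1, a zinc-finger regulator gene, and TRS33. COX17, a copper chaperone gene, lay whole inside a peak of score 93 with DRS1 and PSR1, and RRN11, of the RNA polymerase I core factor, was 70.0% inside a peak of 2150 bp (score 80) that reached CAT2, a carnitine acetyltransferase gene.

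The summits of wide peaks lay inside coding genes less often than nuclear bases do. Of the 286 summits, 173 lay in a protein-coding gene (60.5%, 54.6 to 66.2), against 72.7% of nuclear bases and 66.9% of the summits of narrower peaks. For the 227 wide peaks over 1000 bp from a tRNA gene or Ty-length ORF, the share was 65.2% (58.6 to 71.4). The share of bases also counts Ty-length ORFs, where by rule no wide peak of this set lies. When each gene was cut in 3 equal parts along its strand, 62 of the 173 summits were in the start part (35.8%), 46 in the middle part (26.6%, 20.2 to 33.8) and 65 in the end part (37.6%, 30.3 to 45.2). Each part holds 33.3% of the bases of protein-coding genes, inside the interval for the middle part. That share lay above the interval with the middle of the peak in place of the summit (25.3%, 19.1 to 32.3), with scores of 24 or more (24.5%, 17.8 to 32.3) and without peaks at noncoding RNA genes (25.7%, 19.3 to 33.1). Under all other alternatives it stayed inside, among them width limits of 400 bp (28.5%, 23.3 to 34.2) and 700 bp (23.7%, 15.5 to 33.6). The narrower peaks had 29.7%, 33.1% and 37.2% in the start, middle and end part. Wide peaks at tRNA genes or Ty had 16.4%, 22.4% and 61.2% (48.5 to 72.9 for the end part). Summits highest in score were in MRS2, GPD2 and DRS1 for the start part, COG8, RRN11 and ENO2 (92, 80 and 73) for the middle part, and ATP23, CRH1 and YDL086W (118, 95 and 92) for the end part.

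The other summits lay mainly in gaps between genes. There were 104 (36.4%, against 26.2% of bases): 47 between genes on the same strand, 41 between divergent genes (14.3%, 10.5 to 18.9) and 16 between convergent genes. Divergent gaps, which hold the promoters of both neighbours, make up 9.01% of nuclear bases, and the interval lay above that share, as did that of the narrower summits (11.1%, lower limit 9.40). Among summits in gaps alone, 39.4% (30.0 to 49.5) were in divergent gaps, and the share of gap bases, 34.4%, lies inside that interval. A further 4 summits were on noncoding RNA genes, LSR1, SNR86, SNR37 and SNR82, and 5 were beyond the outermost gene of a chromosome or beside a gene whose strand is not given. The intervals treat peaks as independent, which neighbours are not.

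**Figure D4:**
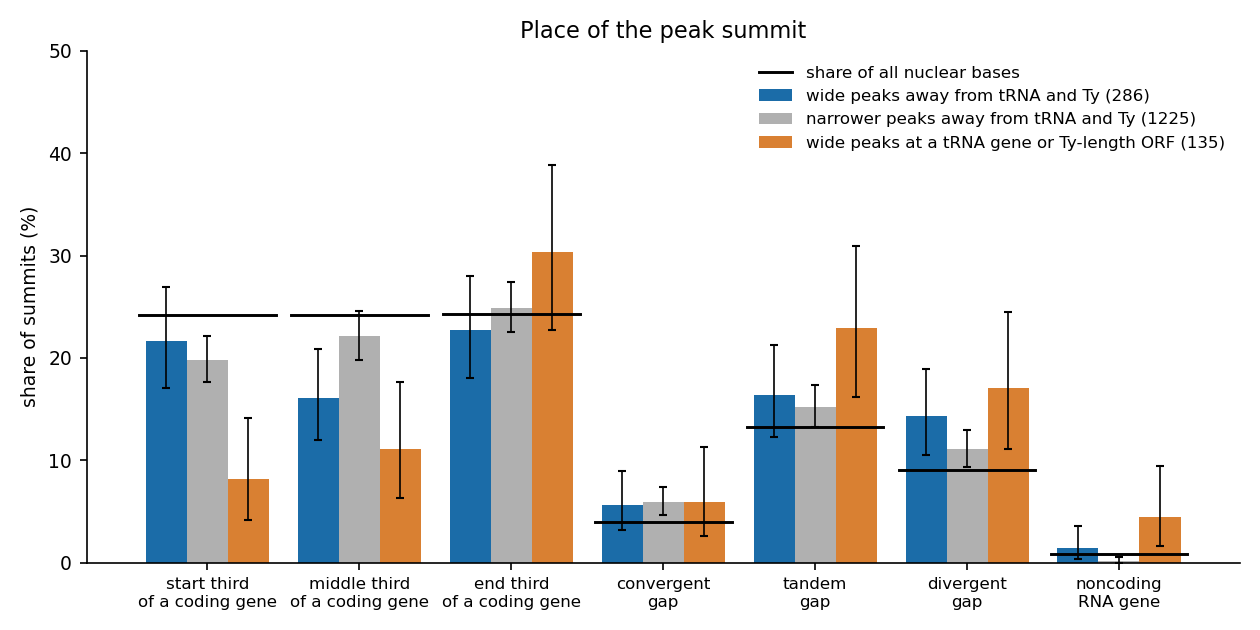
Share of summits (%) by place for the 286 wide peaks away from tRNA and Ty, the 1225 narrower ones and the 135 wide peaks at a tRNA gene or Ty-length ORF. Error bars are exact 95% intervals, black lines the share of all nuclear bases, and the wide peaks (blue) have fewer summits in coding genes (60.5% against 72.7% of bases) and more in gaps (36.4% against 26.2%).

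The wide peaks were spread about evenly around gene ends. Their summits lay a median of 664 bp from the nearest coding end, where the median of all nuclear bases is 666 bp, and 570 bp from the nearest coding start, where it is 617 bp. Within 100 bp of a coding end lay 26 summits (9.09%), against 9.57% of bases and 13.1% of narrower summits. Around the ends of 5064 genes, the share of positions inside wide peaks stayed between 1.90% and 2.25% from 1000 bp before to 1000 bp after the end. In narrower peaks it reached 3.84% at 50 bp past the end. Of 254 touched genes of 500 bp or more, 115 had more bases inside wide peaks on the end side of their midpoint, 124 had more on the start side and 15 had equal numbers. Without ties, the end side had 48.1% (41.6 to 54.7). Most protein-coding genes of the table run from coding start to coding end, with any intron included, so untranslated ends are not part of them.

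**Figure D5:**
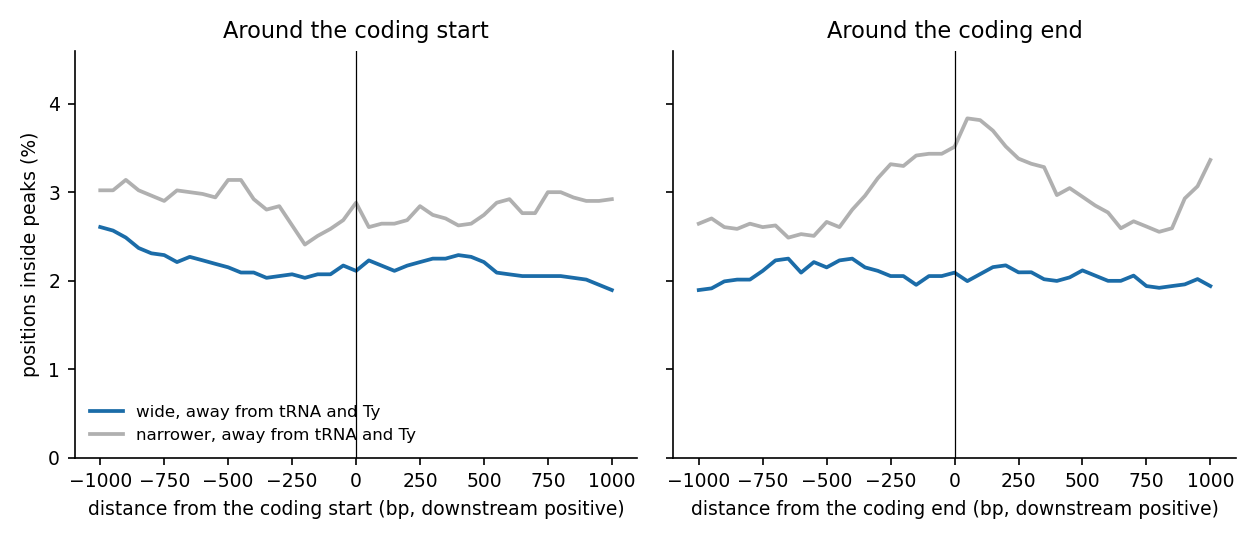
Share (%) of positions inside wide peaks (blue) and narrower peaks (grey) away from tRNA and Ty, by distance (bp) from the coding start and the coding end of 5064 genes. The blue line stays between 1.90% and 2.61% in both panels, and the grey line has its highest value, 3.84%, at 50 bp past the coding end.

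Seen from the gene, the overlaps fell about evenly between both ends. Among 304 overlaps of a wide peak with a protein-coding gene, 101 held the start and not the end (33.2%), 98 held the end and not the start (32.2%), 76 held an inner stretch only and 29 held the whole gene (9.54%). Among 1020 overlaps of narrower peaks, 62.7% were an inner stretch only, a share that width itself lowers in the wide peaks.

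The shares of gene orientation under the wide peaks had wide intervals, which held those of the genome. Of 61 neighbouring pairs of protein-coding genes under 1 wide peak, 30 were in tandem (49.2%, 36.1 to 62.3), 19 convergent (31.2%, 19.9 to 44.3) and 12 divergent (19.7%, 10.6 to 31.8). Among all 5959 neighbouring pairs the shares were 48.3%, 25.8% and 25.9%, all inside those intervals. The intervals treat pairs as independent, but some peaks gave several pairs. The narrower peaks joined only 23 pairs, of which 13 were convergent (56.5%, 34.5 to 76.8). Their convergent pairs had a median gap of 122 bp, against 197 bp in the wide peaks and 228 bp in the genome. Divergent and tandem pairs of the genome had median gaps of 506 and 396 bp, and a peak reaches both genes more easily across a short gap. Convergent pairs under wide peaks included ARE2 with ATP23, RPA34 with SMT1, TEF1 with GRS2 and CIM1 with TRS33, and divergent pairs included RRM3 with ERC1, COX17 with DRS1, MTC1 with ALB1 and MAS1 with SHH4. These pairs were chosen after their values were seen.

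Wide peaks often had a near neighbour. The nearest peak of the list lay within 1000 bp of 182 wide peaks (63.6%), against 37.9% of the narrower peaks and 85.2% of the wide peaks at tRNA genes or Ty. The median gap was 625 bp, against 1650 and 275 bp. A pair of wide peaks lay on each of 20 genes, among them ENO2, CDC19, PMA1, HSC82, DRS1, VMA4, TOR2 (scores of 32 and 44) and HEM15 (52 and 27). No gap was below 175 bp.

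By chromosome, the number of wide peaks ran from 16.0 per Mb on VIII to 39.5 per Mb on I, each with only 9 peaks. It was 34.3 per Mb on XII and 23.7 over the whole genome. Of the 37 peaks on XII, 6 lay within 30 kb of the ribosomal DNA. The outer 30 kb of the chromosome arms held 13 (4.55%, 2.44 to 7.65), against 7.96% of nuclear bases. The whole list was also below that share, with 5.10% of all nuclear peaks (4.10 to 6.26) and 5.63% of the narrower peaks (4.41 to 7.08). Wide peaks at tRNA genes or Ty had 2.22% (0.461 to 6.36). Of the 39 peaks that touched no gene, 16 were within 1000 bp of a tRNA gene or Ty-length ORF. These 39 had a median width of 650 bp and a median score of 32.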

How the data were processed

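The deposited peaks of the S9.6 immunoprecipitate were used. They were made on build sacCer3 with MACS2 2.1.1.20160309 and SAMtools 1.7 among the tools, per the submitters' processing notes. Sources used here do not name the aligner, the peak threshold or the way the input was used. The authors' score per peak has no stated scale and served only to rank and compare peaks within the list. The deposited fold, p and q columns hold 0 throughout and were not used. Per the labels, DNA was cut with restriction enzymes and amplified before 200 bp libraries were made. Fragment ends and amplification can shape peak edges. All 1723 starts are multiples of 25 bp.

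Genes came from a RefSeq table of assembly R64, which is sacCer3, with strands read from systematic names. Of protein-coding lengths 96.4% are multiples of 3. Peaks touched a gene when they shared 1 bp, and covered it at 50% of its length. Coordinates are 1-based. Summits in a gene were placed in 3 equal parts along its strand. Shares carry exact (Clopper-Pearson) 95% intervals. Python 3.11.15, pandas 2.3.3, numpy 2.4.6 and scipy 1.17.1 were used, and the code was tested on simulated peaks. The wide peaks, the lists and the rules were chosen with earlier results of these data known. Named genes are those at the 15 highest and 10 widest peaks, at the 6 peaks with most genes, at the 3 highest summits of each class, up to 3 covered genes per list and the noncoding RNA genes touched. Genes of the strain's genotype and YRA1 were added, and others were named after their values were seen. FLO8 of the transcription factor list matched no gene.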

Additional observations from a re-analysis of the deposited data

How the results depend on the processing

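Of 76 values under alternatives for 9 results, 68 stayed within their intervals or within 1.5 times the count, and 8 moved, all with the width limit or the rule for covered genes. A limit of 400 bp gave 444 peaks, of which 14.6% spanned 2 or more genes, and a limit of 700 bp gave 152, of which 30.9% did. Covered genes numbered 187 with 200 bp around the summit and any overlap, 284 with any overlap and 36 at 90% of the length, where 2 glycolysis genes were left. The share of genic summits in the middle part ran from 23.7% to 28.5% over its alternatives. Leaving out peaks at unnamed ORFs and joining peaks less than 300 bp apart (291 peaks) were added after seeing the data. The planned description of promoter sequence was not run for lack of a sequence table. No paired analysis was possible because there was 1 immunoprecipitate. With 1 library no value has a replicate check, and since read depth is unknown, the counting error behind each peak cannot be given.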

Other observations

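Some wide peaks came in runs. In 11 stretches at least 3 wide peaks followed each other with gaps of at most 1000 bp between peaks of the list, a description made after the values were seen. On chromosome I a run of 6 peaks over 8300 bp (70526 to 78825), 3 of them wide, lay over CDC19, RBG1 and FUN12 in turn. On chromosome X 3 wide peaks over 4275 bp (137701 to 141975) took in DAS1, the snoRNA genes SNR128 and SNR190, RPA34 and SMT1. On chromosome XII 5 peaks, 3 of them wide, lay over SOF1, PSR1, COX17 and DRS1 within 6625 bp, and on chromosome XV 4 peaks, 3 of them wide, lay over SNU66 and NOP58 within 3850 bp. On chromosome XIII 3 wide peaks lay within 3050 bp over RTP1 and HSC82. The longest run, 27625 bp on chromosome XII (469126 to 496750), held 4 wide peaks and took in the 5S genes RDN5-3 to RDN5-6 and the ASP3 copies beside the ribosomal DNA, with 1 peak at a Ty-length ORF among its 7.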
